A study of Drosophila melanogaster with 2 samples.

Results

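The genes described here encode the proteins of the cytosolic ribosome of Drosophila melanogaster, as measured in 1 mRNA library of adult flies. Members were the genes whose FlyBase symbol begins with RpL or RpS, together with sta. There were 93 of them among the 17698 genes listed, 54 of the large and 39 of the small subunit. The symbol was found by gene ID for 92 members, and RpS12 was found by its position (chromosome 3L, 13023352 to 13024762, Release 6).

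Total RNA of adults was extracted with Trizol and sequenced on Illumina libraries, of which the series holds 2, an mRNA and a small RNA library. Only the mRNA library was used here, and it has no replicate. The labels and the study's methods give no sex, strain, age or number of flies for it. Levels below are TPM (each transcript's count per unit of its length, scaled so that the library sums to a fixed total) summed over the transcripts of a gene. With 1 library no difference between conditions could be tested, and every interval covers counting error only.

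A ribosome has a small subunit, which holds the mRNA and reads its codons, and a large subunit, which joins the amino acids and lets the growing chain out through a tunnel. Each protein sits at a fixed place on the ribosomal RNA, and nearly all are present in 1 copy per ribosome. In flies, loss of 1 allele of many of these genes gives the Minute phenotype of slow development and thin bristles. Some of the proteins are encoded by a pair of genes, and several of the additional copies are known from the germline or the testis.

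The members took 2126719 of 26179479 counts, 8.12% (95% exact Clopper-Pearson interval 8.11 to 8.13), and 18.3% of TPM. Every one of the 93 members had over 3 reads, compared with 85.1% of all genes listed. A level of 1000 TPM or more was found in 79 members, compared with 0.774% of all genes. Among the 100 most abundant genes, which are 0.565% of the list, 70 were members.

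The members fell into groups by gene copy. A single gene was counted for 66 of the 79 proteins. The other 13 proteins had a copy named first and at least 1 second copy, 14 second copies in all. Genes named -like were counted as second copies, although they need not encode the same protein. Of these, RpL24-like and RpLP0-like resemble yeast assembly factors. The order of the names within a pair was set with earlier results of these data known, so the direction within a pair is a description. Single and first copies lay between 858 and 5326 TPM, with a median of 2232 TPM, and 76 of the 79 lay within 2-fold of that median. Second copies lay between 2.94 and 1002 TPM, with a median of 47.6 TPM. Only RpS5b of the second copies reached 1000 TPM, whereas 78 of the 79 single and first copies did.

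**Figure D1:**
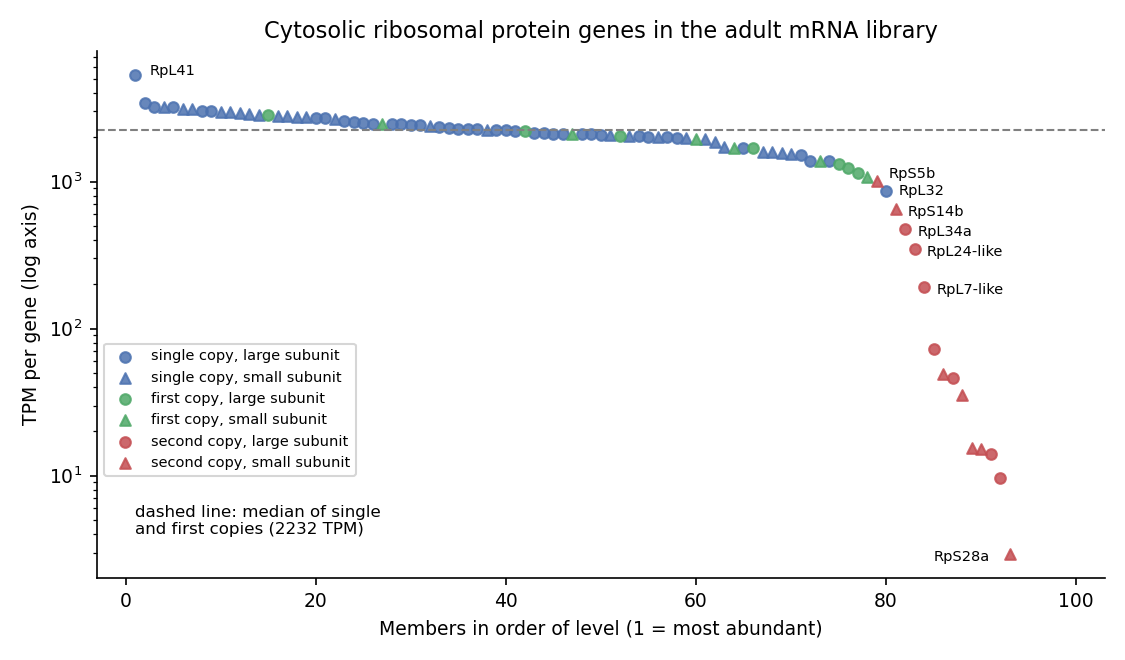
Level of each of the 93 members in TPM (log axis), in order from the most abundant, with single copies in blue, first copies in green and second copies in red, circles for the large and triangles for the small subunit. The 79 single and first copies form a plateau around 2232 TPM, and 13 of the 14 second copies lie below all of them, down to RpS28a at 2.94 TPM. The order within pairs was set with earlier results known, and the second copy was the less abundant one in every pair.

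The spread of levels was narrow within the single and first copies. The SD of log2(TPM + 1) was 0.43 over these 79 genes, compared with 2.29 over the 15057 genes with more than 3 reads. The quartiles were 1961 and 2718 TPM, a ratio of 1.39. The first copy was the more abundant one in each of the 14 pairs, so leaving out second copies narrows the spread by construction. Over the 66 single copies, where no copy was left out, the SD was 0.39. Over all 93 members the SD was 2.09. Both the lower level of the second copies (median 47.6 TPM, compared with 2232 TPM) and their own spread (SD 2.48) enter this value. When the copies of each protein were summed, with the genes named -like included, the 79 proteins had a median of 2251 TPM and an SD of 0.40. This sum was chosen after the levels had been seen.

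The most abundant member was RpL41 with 5326 TPM (28586 counts), and it was the sixth most abundant gene of the library. RpL41 encodes a very short basic peptide, and its implied spliced length, obtained from counts and TPM, was 317 bases. RpL19, a protein near the tunnel exit, followed with 3434 TPM, ahead of RpL27A with 3223 TPM. RpS25, which lies near the E site of the small subunit, had 3218 TPM, and the acidic stalk protein RpLP2 had 3217 TPM. RpL41 thus stood 1.55 times above the next member, while the 4 genes after it lay close together.

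The lowest single-copy member was RpL32 with 858 TPM (7680 counts, 95% interval 839 to 878), which was 38.5% of the median of single and first copies. RpL32, also known as rp49, is widely used as a reference gene in fly expression assays. RpL37A with 1371 TPM and RpL30 with 1383 TPM were the next lowest. RpL38 with 1517 TPM and RpS2 with 1532 TPM completed the 5 lowest. From RpL41 to RpL32 the single-copy members spanned 6.21-fold, and the counting interval of RpL32 did not reach that of any other single-copy member.

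Grouped by place in the large subunit, a grouping made after the levels had been seen, most sites lay near the median. In the peptidyl transferase core, where the peptide bond is made, RpL3 had 2019.8 TPM, RpL4 had 2215 TPM and RpL8 had 2109.7 TPM, and RpL10, which is added late in assembly, had 3012 TPM. The core proteins other than RpL10 were thus within a narrow band. At the tunnel exit, where the chain leaves the ribosome, 7 genes lay between 2015 TPM (RpL17) and 3434 TPM (RpL19). Between them were RpL26 with 2083 TPM, RpL23A with 2232 TPM, RpL39 with 2307 TPM, RpL35 with 2481 TPM and RpL31 with 2725 TPM. RpL5 and RpL11, which enter the ribosome together with the 5S rRNA, had 2423 and 2025 TPM.

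The stalk, which recruits the GTPases of translation, had the most uneven levels of the groups of large-subunit proteins. It is built from 1 copy of the P0 protein carrying several copies of P1 and P2. RpLP0 had 1145 TPM, RpLP1 had 2576 TPM (2.25 times RpLP0) and RpLP2 had 3217 TPM (2.81 times RpLP0). RpLP0 was at 0.513 times the median of single and first copies, RpLP1 at 1.15 and RpLP2 at 1.44 times. RpL19, RpL27A and RpS25, each present once per ribosome, had 3434, 3223 and 3218 TPM. A relation between level and number of copies per ribosome was not tested. RpL12, which forms the base of the stalk with P0, had 2089 TPM.

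On the small subunit, the 3 proteins listed for the mRNA entry had lower levels than the 4 listed for the decoding and P sites. RpS2 had 1532 TPM, RpS3 had 2018 TPM and RpS9 had 1964 TPM at the entry. RpS15, RpS16, RpS18 and RpS23, around the decoding and P sites, had 2922, 2648, 2772 and 2837 TPM. Levels in these groups did not overlap, but the groups hold 3 and 4 genes and were chosen after the levels had been seen. Neither group is a complete list of the proteins near these sites. RpS30 with 2805 TPM was left out of both, and the groups would overlap if it were listed for the entry. RpS26, the only gene listed for the mRNA exit, had 3112 TPM. RpS5a and RpS5b, which encode another protein of the exit, had 1069.9 and 1002 TPM. RpS6, the known substrate of S6 kinase, had 2043 TPM, and RpS12 had 1939 TPM.

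A further 16 single-copy genes of the large subunit lay between 1695 and 2711 TPM, with a median of 2277 TPM. The highest were RpL13 with 2711 TPM and RpL23, a protein of the face toward the small subunit, with 2559 TPM. Next came RpL21 with 2478 TPM, RpL18 with 2456 TPM, RpL13A with 2449.8 TPM and RpL29 with 2426 TPM. Within a few percent of the median were RpL36, RpL14, RpL27 and RpL6 with 2286, 2278, 2276 and 2233 TPM. RpL15, RpL7A, RpL28 and RpL35A followed with 2127, 2125, 2097 and 2092 TPM, ahead of RpL9 with 1988 TPM. The lowest of them was RpL36A, a protein near the E site, with 1695 TPM.

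A further 8 single-copy genes of the small subunit ranged more widely, from 1555 to 3129.8 TPM with a median of 2233 TPM. RpS29, a small zinc-binding protein of the head of the subunit, had 3129.8 TPM, and RpS7 and RpS13 had 2862 and 2739 TPM. RpS4 had 2404 TPM and RpS24 had 2062 TPM. RpS20 with 1852 TPM, RpS21 with 1709.6 TPM and RpS27 with 1555 TPM made up the lower end. No gene of either group lay above RpS25 or below RpS2.

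Members made as fusions lay above the median. RpL40 and RpS27A, each translated as a fusion with ubiquitin, had 2346 and 2755 TPM, and RpS30, translated with a ubiquitin-like protein, had 2805 TPM. The gene of RpS27A overlaps Ip259 over 1259 bases on the same strand, and Ip259 had 282 TPM, so the reads of the overlap may have been assigned to either gene. The gene sta, which encodes the small-subunit protein related to the laminin receptor, had 1589 TPM. For the subunits as a whole, the median was 2232 TPM for the 47 single and first copies of the large subunit and 2173 TPM for the 32 of the small subunit, a ratio of 0.974. With second copies included, the medians were 2126 and 2018 TPM, a ratio of 0.949, and on counts in place of TPM the ratio turned to 1.02.

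The order of levels was weakly and inversely related to transcript length. Spearman's coefficient between TPM and implied spliced length was -0.20 over the 79 single and first copies and -0.11 over the 66 single copies, given without a test because the genes share 1 library and TPM contains length. The 40 shorter genes had a median of 2473 TPM and the 39 longer ones a median of 2083 TPM. By strand, 36 of these genes on the plus strand had a median of 2247 TPM and 43 on the minus strand a median of 2232 TPM.

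The duplicated genes were compared next as the share of a pair's TPM held by the second copy, with a 95% exact interval taken from the counts of the pair. In 3 of 14 pairs the second copy held 20% or more, in 3 it held between 5% and 20%, and in 8 it held under 5%. The 14 second copies summed to 2921 TPM, 1.60% of the TPM of all members. Reads that match both copies of a near-identical pair may be split by the counting tool, whose name the sources do not give, so shares of such pairs are uncertain beyond the interval.

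RpS5a and RpS5b, which encode the small-subunit protein at the mRNA exit, were nearly equal. RpS5a on the X had 1069.9 TPM (15589 counts) and RpS5b on 3R had 1002 TPM (14802 counts), so RpS5b held 48.4% (47.8 to 48.9). RpS5a was 1.07 times as abundant, and the interval did not reach an equal share. RpS5b is known from the female germline. The 12 ovary and egg genes read beside it were uneven. The egg thioredoxin dhd had 5775 TPM, osk, which assembles germ plasm, had 479.6 TPM, vas, a germline helicase, had 74.9 TPM and bcd, the anterior determinant, had 63.5 TPM. The vitelline membrane gene Vm26Aa had 875 TPM and the yolk protein genes Yp1, Yp2 and Yp3 had 913, 652 and 543 TPM, while the eggshell genes Cp16, Cp15, Cp36 and Cp38 had 68.2, 15.6, 7.64 and 3.16 TPM. The fraction of RpS5b that came from the ovary was not tested, since in a whole-fly library the number of cells of a type and their RNA content cannot be told apart.

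RpS14a and RpS14b are neighbours on the X (7933742 to 7934677 and 7934898 to 7935792, Release 6) and encode the same protein. RpS14a had 1372 TPM (15084 counts) and RpS14b had 646 TPM (6460 counts). RpS14b held 32.0% of the pair (31.4 to 32.6), or 30.0% of its counts. Because the coding sequences are close to identical, this share is uncertain. RpL34b had 1687 TPM and RpL34a 474 TPM, both on 3R, and RpL34a held 21.9% (21.4 to 22.5). For these 3 pairs the summed level lay between 2018 and 2161 TPM, near the median of 2251 TPM per protein, although no single gene of these pairs was above 1687 TPM. Sums of the other pairs ranged from 1218 TPM (RpLP0 with RpLP0-like) to 2825 TPM (RpL37-1 with RpL37-2). RpL22 with RpL22-like (1258 TPM) and RpL10Ab with RpL10Aa (1368 TPM) also stayed well below the median, so nearness to it was not shared by all pairs.

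The copies with a share between 5% and 20% carry names ending in -like. RpL24-like, which resembles a yeast assembly factor (Rlp24), had 347 TPM beside 2048 TPM of RpL24, a share of 14.5% (14.1 to 14.9). RpL7-like had 192 TPM beside 2207 TPM of RpL7, a share of 8.02% (7.75 to 8.30). RpLP0-like, which resembles the yeast assembly factor Mrt4, had 73.1 TPM beside 1145 TPM of RpLP0, a share of 6.0% (5.68 to 6.34). RpL7-like overlaps CG34164 on the same strand over 1904 bases, and CG34164 had 2.11 TPM. With this added, the share was 8.10%.

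Below 5% the second copies differed widely among themselves. RpL10Aa had 46.0 TPM beside 1322 TPM of RpL10Ab (3.36%, 3.11 to 3.64), and RpS15Ab had 49.2 TPM beside 1696 TPM of RpS15Aa (2.82%, 2.60 to 3.05). RpS19b, known from the germline, had 35.2 TPM beside 2469 TPM of RpS19a (1.41%, 1.27 to 1.55). RpL22-like, known from the testis and eye, had 14.1 TPM beside 1244 TPM of RpL22 (1.12%, 0.994 to 1.25). The first copies of these 4 pairs were therefore 28.7 to 88.5 times as abundant as the second copies.

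The lowest shares came from 4 second copies with 16 to 159 counts each. RpS28-like had 15.1 TPM (93 counts) and RpS28a 2.94 TPM (16 counts, interval 1.68 to 4.77 TPM), beside 1958 TPM of RpS28b. Their shares in the respective pairs were 0.767% (0.620 to 0.939) and 0.150% (0.0857 to 0.243), and on counts the share of RpS28a was 0.0921%. RpS10a, a germline copy, had 15.5 TPM (159 counts) beside 2095.8 TPM of RpS10b, a share of 0.735% (0.626 to 0.858), which was 1.17% when only the most abundant transcript of each gene was used. RpS10a lies within tau on the opposite strand, and tau had 26.1 TPM. The sources do not say whether the counting used strand, so part of the reads of RpS10a may belong to tau. RpL37-2 had 9.71 TPM (70 counts) beside 2815 TPM of RpL37-1, a share of 0.344% (0.268 to 0.434).

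**Figure D2:**
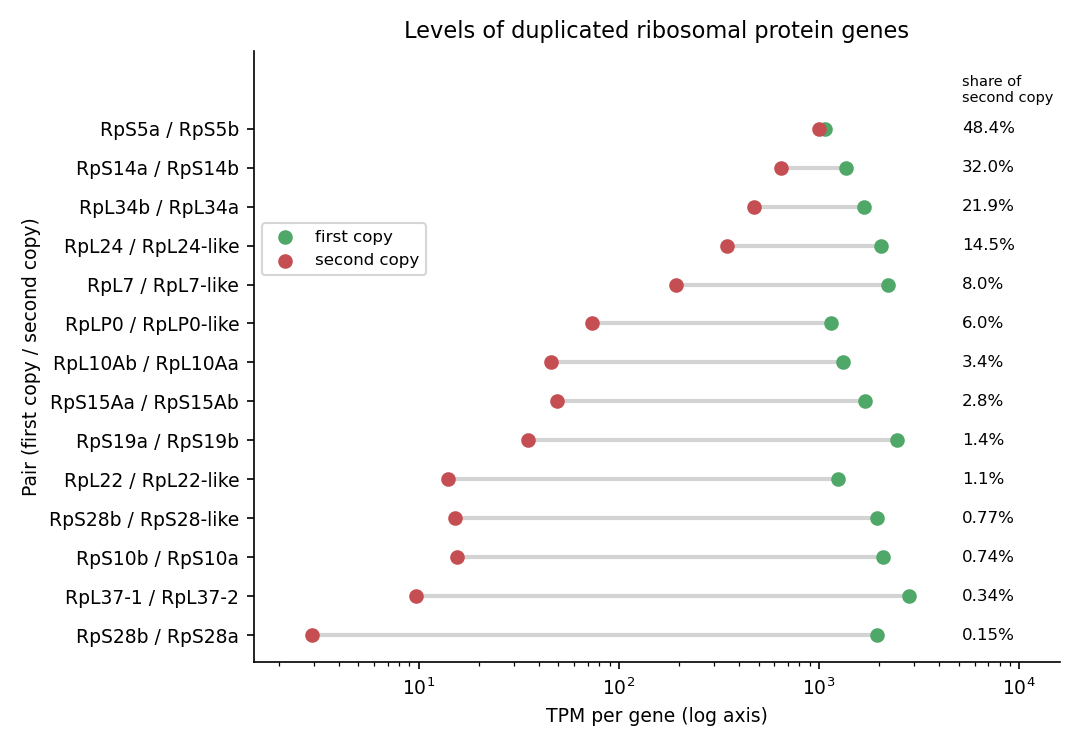
Level of the first copy (green) and the second copy (red) of 14 pairs in TPM (log axis), with the share of the pair's TPM held by the second copy at the right. The distance between the points grows from RpS5a and RpS5b (48.4% in the second copy) to RpS28b and RpS28a (0.15%), while the first copies stay between 1069.9 and 2815 TPM.

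Marker genes of germline and soma were read in the same library. Of the testis genes, Mst87F, a sperm tail protein, had 934 TPM, betaTub85D, the testis tubulin, had 297 TPM and bam, which ends spermatogonial divisions, had 39.4 TPM, while can and aly, regulators of spermatocyte transcription, had 1.46 and 2.14 TPM. The 10 genes listed for testis ranged from 1.46 to 934 TPM, and the 12 listed for ovary and egg from 3.16 TPM (Cp38) to 5775 TPM (dhd). A gene listed for a tissue, such as a yolk protein gene or bam, may also be expressed in others. The 3 accessory gland genes ranged from 334 TPM (SP) to 629 TPM (Acp36DE), the rhodopsin gene ninaE had 1671 TPM, and the muscle genes Act88F and Mhc had 23.6 and 230 TPM. The library thus held transcripts of male and female reproductive tissue and of soma. How much these tissues contribute to the level of any second copy was not tested.

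The first copies lay on the X more often than the single copies, which is described here without a test. Of the 13 first copies, 8 (61.5%) were X-linked, compared with 6 of 66 single copies (9.09%) and 15.1% of all genes listed. In 8 of the 9 pairs with an X-linked first copy, the second copy lay on an autosome, and the exception was RpS14a with RpS14b. Of the 14 second copies, 7 were on 3R, 4 on 2R, 2 on 2L and 1 on the X. The median of single and first copies was 2029 TPM on the X (14 genes), compared with 2346 TPM on 2L (17 genes), 2648 TPM on 2R (17 genes), 2118 TPM on 3L (14 genes) and 2224 TPM on 3R (16 genes). RpS3A, with 2984 TPM, was the only member on chromosome 4, and none of the 113 genes listed on the Y was a member.

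Most members were expressed mainly as 1 transcript. At least 2 transcripts were listed for 69 members, and the other 24 had 1. RpL15 had the most, with 8 transcripts. The leading transcript held 90% or more of TPM in 52 of the 69, compared with 46.6% of all 6834 genes with at least 2 transcripts and a TPM of 1 or more. The median leading share was 98.0% for the members and 88.2% for those genes. Of the remaining members, 14 had a leading share from 60% to 90%, and 3 lay under 60%. Transcripts of a gene overlap, so these values are estimates by the authors' counting tool.

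RpL28, a protein of the large subunit, had the most even split. Its leading transcript had 1016 TPM, 48.4% of the gene. Another transcript, whose annotated start lies 665 bases downstream, had 708 TPM, and the other 4 had between 6.60 and 174 TPM. RpL27 also divided its level, with 1234, 546 and 491 TPM in 3 transcripts that share both ends. RpS7 had 1674 TPM in its leading transcript (58.5%) and 1102 TPM in a transcript that starts 78 bases downstream. Among second copies, RpL34a divided its TPM between a transcript with 65.3% and another with 34.7%.

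**Figure D3:**
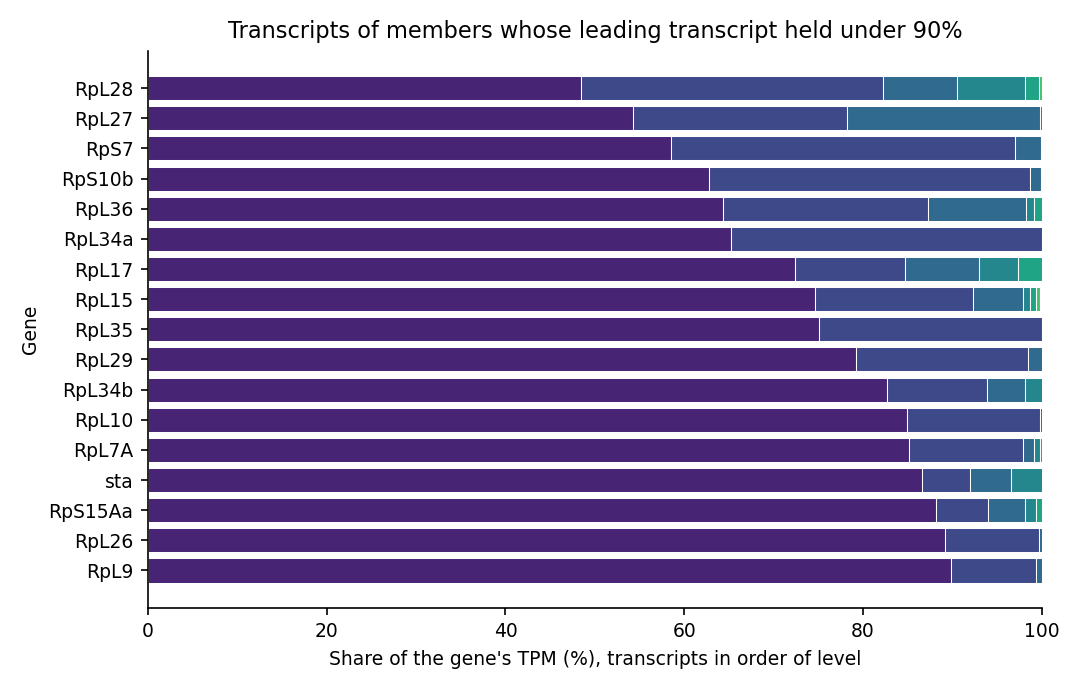
Share of each gene's TPM (percent) in its transcripts, stacked in order of level, for the 17 members with at least 2 transcripts and a leading share under 90%. RpL28, RpL27 and RpS7 at the top have leading shares of 48.4%, 54.2% and 58.5%, and RpL9 at the bottom has 89.9%.

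Genes of small nucleolar RNAs, which guide the modification of ribosomal RNA, lay within the bounds of 28 members, all of them single or first copies. Of the 13881 protein-coding genes listed, 0.648% overlapped such a gene. The 28 members held 71 such genes. RpS5a held 14 of them, RpS7 held 7, and RpS16 and RpL28 held 5 each. In the mRNA library 33 of the 71 had over 3 reads, 63 had under 10 reads and 6 were at 0, with a median of 3 reads and 1.42 TPM. The highest was snoRNA:Psi18S-531 within RpL22, with 37.2 TPM (96 reads). The 28 host members had a median of 2069.8 TPM, compared with 2286 TPM for the other 51 single and first copies.

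Other genes overlapped several members. A protein-coding gene overlapped 24 of the 93 members, compared with 41.1% of protein-coding genes. A gene on the opposite strand overlapped 26 members, compared with 38.4% of protein-coding genes. RpL41 lies wholly within NaCP60E, a sodium channel gene on the opposite strand with 15.2 TPM, beside 5326 TPM for RpL41. RpS9 shares 873 bases with asRNA:CR45874 on the opposite strand, which had 71.7 TPM. RpL22 shares 1196 bases with lncRNA:CR42491 on the same strand, which had 73.7 TPM. RpL12 and RpL39, both members on 2R, overlap by 8 bases at their ends on opposite strands. Without strand in the counting, reads of partners on opposite strands cannot be told apart. For RpL22 and lncRNA:CR42491, on the same strand, strand would not separate the reads. Neither was tested.

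The other genes of translation were compared to show where the members stand. Rack1, a scaffold protein bound to the small subunit, had 2091 TPM, 0.937 times the median of single and first copies. Of the elongation factors, eEF1alpha1, which delivers aminoacyl-tRNA, had 5691 TPM, 2.55 times that median, and eEF2, the translocase, had 1874 TPM. eEF5 with 1523 TPM, eEF1gamma with 1485 TPM, eEF1beta with 1419 TPM and eEF1delta with 421 TPM were lower. eEF1alpha2 had 55.0 TPM, and eEF1alpha1 was 104 times as abundant. The ratios of first to second copy in the ribosomal protein pairs ran from 1.07 to 666.

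The 12 ribosome assembly genes lay below all 79 single and first copies, between 18.7 and 433 TPM with a median of 104.5 TPM. The highest were Nop60B, a pseudouridine synthase, with 433 TPM, and Non1, a nucleolar GTPase, with 316 TPM. Among the methylation proteins Fib had 185 TPM, nop5 had 165 TPM and Nop56 had 163 TPM, and Tif-IA, an initiation factor of RNA polymerase I, had 121 TPM. NHP2, Ns1 and bys had 87.5, 55.3 and 49.7 TPM. Subunits of RNA polymerase I were lowest, with 38.2 TPM for Polr1C, 20.2 TPM for Polr1A and 18.7 TPM for Polr1B.

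The 73 mitochondrial ribosomal protein genes, found by the prefix mRp, had a median of 59.7 TPM. The median of the cytosolic single and first copies was 37.4 times as high. The highest was mRpL12 with 236 TPM, which is the mitochondrial stalk protein, and the lowest was mRpL53 with 1.81 TPM (26 counts). The SD of log2(TPM + 1) was 0.74 over the mitochondrial genes and 0.52 without mRpL53, which was left out after its value had been seen. It was 0.43 over the cytosolic single and first copies and 2.09 over all cytosolic members. The value of 0.43 leaves out the less abundant copies of the pairs, and over the cytosolic single copies alone the SD was 0.39. The ratio of the quartiles was 1.57 for the mitochondrial genes and 1.39 for the cytosolic single and first copies. No mitochondrial gene reached the level of RpL32.

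**Figure D4:**
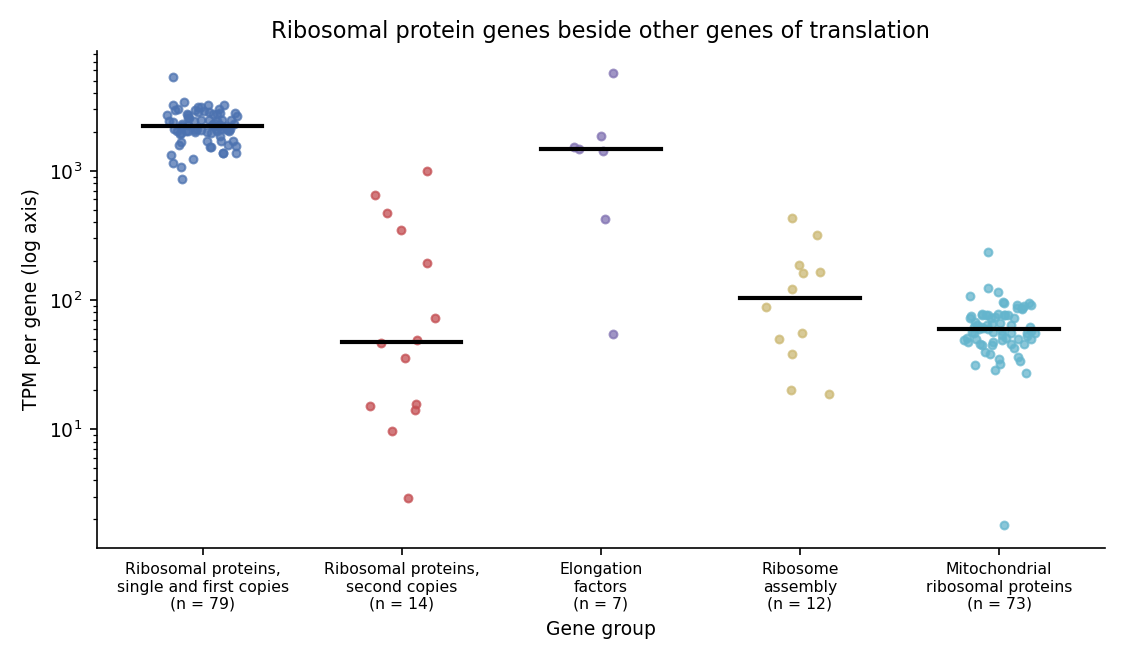
TPM (log axis) of each gene in 5 groups, with the median as a bar. The 79 single and first copies (median 2232 TPM) lie above all 12 assembly genes and all 73 mitochondrial ribosomal protein genes, and the 14 second copies spread from 2.94 to 1002 TPM.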

How the data were processed

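The authors deposited 1 table for the mRNA library with whole-number counts, TPM and FPKM for 34736 transcripts of 17698 genes. The library total was 26179479 counts. The authors' deposited counts were taken as rounded expected counts, since overlapping isoforms carried very different values. TPM and FPKM were made by the authors from the same counts per transcript, and FPKM was not used here. The submitters' processing notes for the series list CASAVA and HISAT2, without versions. No source used here names the counting tool, genome build, annotation or use of strand. The study's methods describe only the small RNA library, which was not used here.

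Members and lists were chosen with earlier results of these data known. Symbols came from a table of gene IDs (17560 genes, 99.2%). Positions are those of the deposited table, and they equal RefSeq Release 6 for 92 of 93 members (the exception is RpL23A) and for 17486 of the 17613 genes found there. TPM and counts were summed over the transcripts of a gene with pandas 2.3.3 in Python 3.11.15. An implied spliced length was obtained as 59.08 bases times counts divided by TPM. This factor was derived from transcripts with at least 1000 counts, from the lowest values of genomic span times TPM divided by counts. It was not checked separately, and lengths implied by few counts are imprecise. A pseudocount of 1 was used for log2 values. Intervals of shares are two-sided exact Clopper-Pearson intervals at 95% (scipy 1.17.1), and those of pair shares were tested on simulated data. Intervals of the TPM of a single gene are exact Poisson intervals of its counts at 95%, scaled by its TPM per count. These were not tested on simulated data. For a share of TPM, the interval of the counts was scaled by the TPM per count of both copies. Figures were drawn with matplotlib 3.10.9.

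The text names every gene of a duplicated pair, the 5 highest and 5 lowest single-copy members, and members with a leading transcript under 60% of TPM. It also names sta, RpL40 and RpS27A, the listed translation genes and most of the listed marker genes. The marker genes dj, Mst84Da, Mst84Db, Mst84Dc, Mst84Dd and Acp26Aa entered only the ranges of their lists. The gene nos was planned for the ovary and egg list but is not among the genes read. Outside this rule, members were named by their place on the ribosome or to give the levels of further single-copy genes. These, the overlapping genes, mRpL12 and mRpL53 were chosen after their values were seen. Alternatives used other pseudocounts (0.1 and 10), the leading transcript only, counts in place of TPM, other denominators, and members without second copies. The single values of a few members are not reported here, though they enter the counts and medians over all members.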

Additional observations from a re-analysis of the deposited data

How the results depend on the processing

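With 1 library there was no replicate to leave out, and no alternative tests a difference. No paired analysis was possible because the result comes from no test. The median member level was 2096 TPM, and 1934 TPM with only the most abundant transcript of each gene. It was 2232 TPM with second copies left out and 2251 TPM summed per protein, which was chosen after seeing the data. A limit of over 3 reads left it as it was, since all members had more. The members' share of TPM was 18.3%, or 19.0% without the mitochondrial genome, 19.3% of protein-coding genes and 8.12% of counts. The SD of log2(TPM + 1) was 2.09, and 2.12 with a pseudocount of 0.1, 1.90 with 10, 2.07 with the most abundant transcript and 2.20 on counts. It was 0.43 without second copies and 0.40 summed per protein. The ratio of small- to large-subunit medians was 0.949, or 0.974 without second copies and 1.02 on counts, where its direction turned. The share of the second copy stayed within its interval on counts in 8 of 14 pairs and with the most abundant transcript in 10 of 14. The largest difference was 3.77 percentage points (RpL34a), and the largest fold was 1.63 (RpS28a on counts, 0.0921%), while RpS10a was at 1.17% with the most abundant transcript. The cause of these shifts was not tested. The planned search for a promoter start motif was not run, because no promoter sequence was used here. Depth limits RpS28a most, with 16 counts.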
